A study of Mus musculus with 4 samples.

Results

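The 8 genes of antigen presentation described here were followed in single basal cells of mouse back skin, out of 24378 gene rows in the count tables: B2m, H2-K1, H2-D1 and Tap1 of the MHC class I pathway, and Cd74, H2-Aa, H2-Ab1 and H2-Eb1 of the class II pathway. The 8 members were taken by gene name, with no threshold on their values, and all 8 had a row in every table. The cells came from female Ivl-CreERT2/R26-tdTomato mice aged 57 days, killed 2 days after tamoxifen at 10 µg/g per the labels, and the series names 2 mice. The study's methods give a higher tamoxifen dose for this line than the labels do. In this line, tamoxifen switches on tdTomato in cells that use the involucrin promoter, so the label marks cells that had expressed this differentiation gene, together with their daughters. All sorted cells were CD49f+, LY6A+ and CD34-, the surface profile of basal interfollicular epidermis, and were divided into Tom+ (traced) and Tom- (non-traced). Each sort was loaded on 2 Fluidigm C1 chips of 96 wells, giving 4 libraries of UMI counts from the 5′ ends of mRNAs. The titles give 1 Tom+ and 1 Tom- library the same number, and these pairs are called set 1 and set 2 here. Nothing shows that the 2 libraries of a sort came from different mice, so p-values measure only the spread between libraries.

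MHC class I molecules show peptides from inside the cell to CD8 T cells and are made by almost all nucleated cells, keratinocytes included. B2m encodes the invariant light chain, H2-K1 and H2-D1 encode heavy chains, and Tap1 encodes a subunit of the transporter that brings peptides into the endoplasmic reticulum. MHC class II molecules show peptides to CD4 T cells. H2-Aa encodes an α chain, H2-Ab1 and H2-Eb1 encode β chains, and Cd74 encodes the invariant chain that guards the groove during transport. In resting epidermis, class II is known chiefly from Langerhans cells, and interferon-γ can induce it in keratinocytes.

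Class I and class II genes differed widely in level, and stretches upstream of 3 members are shown to set the sequences of the 2 classes side by side. They come from the RefSeq promoter windows of GRCm38.p6, which held 6 of the 8 members, and each ends 1 base before the annotated start. The H2-K1 stretch is chr17:34000348-34000487 on the minus strand, the B2m stretch is chr2:122147527-122147686 on the plus strand, and the H2-Eb1 stretch is chr17:34305727-34305866 on the plus strand. Capitals mark the letters searched for, on either strand.
H2-K1: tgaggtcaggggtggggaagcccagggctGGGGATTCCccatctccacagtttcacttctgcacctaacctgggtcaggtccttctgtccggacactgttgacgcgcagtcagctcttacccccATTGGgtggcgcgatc
B2m: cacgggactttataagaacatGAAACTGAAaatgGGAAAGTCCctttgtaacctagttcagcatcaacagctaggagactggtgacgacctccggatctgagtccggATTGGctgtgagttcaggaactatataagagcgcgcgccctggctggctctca
H2-Eb1: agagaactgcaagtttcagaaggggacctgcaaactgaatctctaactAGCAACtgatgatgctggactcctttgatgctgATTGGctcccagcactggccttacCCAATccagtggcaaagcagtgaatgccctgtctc

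The stretches are the last 140 bases (H2-K1 and H2-Eb1) or 160 bases (B2m) before the start, and the shares given here are over the full 250 bases before the start in 32851 promoter windows. The letters CCAAT (or ATTGG on the other strand) stood in all 3 stretches, in the windows of H2-D1, Tap1 and H2-Aa too, and in 33.8% of windows. The κB-type letters GGGGATTCC stood in H2-K1, 111 bases before the start (125 in a second H2-K1 window), and in H2-D1, 171 bases before the start of its window. The H2-D1 window begins at chr17:35262844, inside the gene span given below, so the 2 annotations place its start differently. These letters stood in 0.213% of windows, but not in those of B2m, Tap1, H2-Aa or H2-Eb1. B2m held another κB-type run, GGAAAGTCC (0.283% of windows), next to the interferon-response letters GAAACTGAA (0.542% of windows). The letters AGCAAC, the core of the class II X box, stood in H2-Eb1 92 bases before the start and in 12.2% of windows. They did not occur in the window of H2-Aa, the other class II member with one. These matches describe letters only, and no binding was measured. Other forms of these elements were not searched, so a stretch without marked letters, such as H2-K1 for the interferon-response letters, may still hold one.

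Wells with at least 2000 gene UMIs were kept as cells, which left 161 of 384: 35 and 58 in the Tom+ libraries of set 1 and set 2, and 20 and 48 in the Tom- libraries. The summed gene UMIs ranged from 81630 to 305407 per library. Every kept well held at least 3 of 8 keratinocyte markers, whose summed level lay between 375 and 393 UMIs per 10000 gene UMIs. T cell markers, at least 3 of them, were found in 3 wells, and 23 wells held at least 3 markers of the hair follicle infundibulum. All 5 macrophage markers with a row stood at 0. Well positions cannot link cells between chips, and 3 positions were kept on all 4.

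Class I transcripts were found throughout the sorted keratinocytes. B2m was detected in 161 of 161 cells and ranked 34 among all genes by UMIs, with 2772 UMIs in total. H2-K1 followed with 896 UMIs in 148 cells, H2-D1 with 372 UMIs in 131 cells (without the H2-L row described below), and Tap1 with 84 UMIs in 56 cells. The class II genes lay far lower, at 15 UMIs for H2-Aa, 7 each for Cd74 and H2-Eb1, and 5 for H2-Ab1. UMIs tag the 5′ end, so these levels do not scale with transcript length, but capture can differ between genes.

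**Figure D1:**
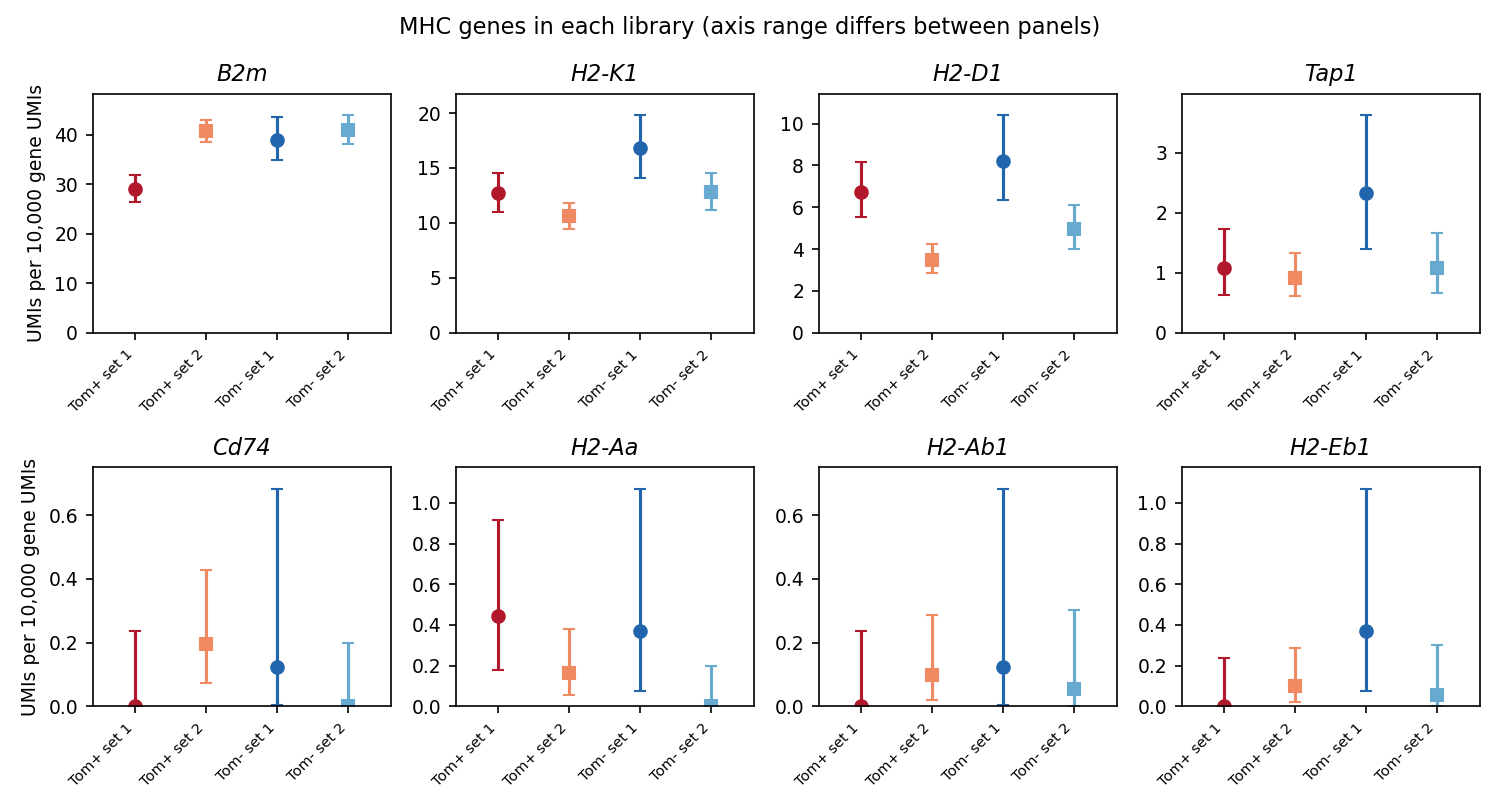
UMIs per 10,000 gene UMIs of each gene (vertical axes, ranges differ between panels) in the 4 libraries (horizontal axes), with exact 95% Poisson intervals that cover counting error only. B2m lies between 29.0 and 40.9, and none of the class II genes exceeds 0.445.

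B2m (chr2:122147686-122153083, plus strand, GRCm38) stood at 29.0 UMIs per 10000 gene UMIs in Tom+ set 1, 40.7 in Tom+ set 2, 39.0 in Tom- set 1 and 40.9 in Tom- set 2. Tom+ set 1 was low, the other libraries lay close together, and the sorts overlapped. With every cell thinned to 2000 UMIs, B2m kept at least 1 UMI in 100% of cells of each library. The thinned count per cell ran from 1 over a median of 6 to 14 in Tom+ set 1, and from 2 over 7.5 to 17 in Tom+ set 2. In the Tom- libraries it ran from 1 over 6.5 to 15 in set 1 and from 1 over 7 to 20 in set 2. Its variance over cells was 1.59 to 2.8 times its mean, where pure counting noise would give 1.

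H2-K1 (chr17:33996017-34000347, minus strand) stood at 12.7 and 10.6 UMIs per 10000 in the Tom+ libraries of set 1 and set 2, against 16.8 and 12.8 in the Tom- libraries. The higher Tom+ and the lower Tom- library almost met. After thinning, an H2-K1 UMI was found in 85.7% of cells in Tom+ set 1 (exact binomial 95% interval 69.7 to 95.2) and 89.7% in Tom+ set 2 (78.8 to 96.1). The shares were 95% in Tom- set 1 (75.1 to 99.9) and 85.4% in Tom- set 2 (72.2 to 93.9), so the sorts overlapped. The Tom+ mean lay 2.52 percentage points below the Tom- mean (exact two-sided permutation p = 1.0, n = 2 libraries per sort, where 0.333 is the smallest p possible). The variance of H2-K1 over cells was 1.01 to 1.36 times its mean. Its mean thinned count per cell was 2.22 to 2.85 between libraries, against 5.4 to 8.06 for B2m. Where cells differ, the variance over the mean rises with the mean, so these ratios do not rank the 2 genes by their spread between cells.

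H2-D1 (chr17:35262730-35267499, plus strand) needs to be read together with H2-L, a row annotated to a heavy chain gene of near-identical sequence. How reads shared by such genes were assigned is not given in the sources used here, so the split between them is uncertain. Whether mice of this strain carry H2-L as a separate gene was not checked, so the H2-L row may count transcripts of H2-D1. H2-D1 stood at 6.74 UMIs per 10000 in Tom+ set 1, 3.50 in Tom+ set 2, 8.21 in Tom- set 1 and 4.98 in Tom- set 2. It was higher in set 1 than in set 2 in both sorts. H2-L had the opposite order, with 8.58 and 10.7 in the Tom+ libraries and 11.3 and 14.4 in the Tom- libraries of set 1 and set 2. H2-D1 made up 44.0% of their summed UMIs in Tom+ set 1 (exact binomial 95% interval 37.6 to 50.5) and 42.1% in Tom- set 1 (34.4 to 50.2). In set 2 it made up 24.6% (20.6 to 28.9) of the sum in Tom+ and 25.8% (21.3 to 30.6) in Tom-.

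**Figure D2:**
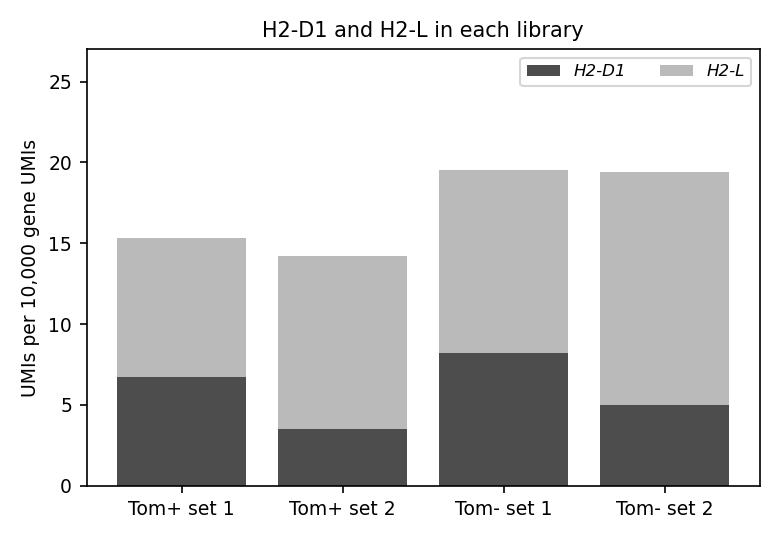
Stacked bars of H2-D1 and H2-L in UMIs per 10,000 gene UMIs (vertical axis) in each library (horizontal axis). The summed bars reach 15.3 and 14.2 in Tom+ and 19.5 and 19.3 in Tom-, while the H2-D1 part is larger in both set 1 libraries.

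The difference between sets, tested after it was seen, did not pass for either row. With the sort in the model, H2-D1 was 0.76 higher in set 1 on the log2 scale (SE 0.26, edgeR adjusted p = 0.198), and H2-L was 0.41 lower (log2 fold change -0.41, SE 0.21, adjusted p = 0.582). This comparison called 0.423% of 3070 genes. The sum of H2-D1 and H2-L was 15.3 and 14.2 UMIs per 10000 in the Tom+ libraries of set 1 and set 2 and 19.5 and 19.3 in the Tom- libraries. The fitted Tom+ minus Tom- difference of this sum was -0.43 (SE 0.24, edgeR adjusted p = 0.603).

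Tap1 (chr17:34187553-34197225, plus strand) stood at 1.08 and 0.917 UMIs per 10000 in the Tom+ libraries of set 1 and set 2 and at 2.33 and 1.08 in the Tom- libraries. Only Tom- set 1 stood apart, on 19 UMIs. After thinning, the share of cells with a Tap1 UMI was 20.0% in set 1 and 17.2% in set 2 for Tom+, and 40.0% and 14.6% for Tom-. The mean shares differed by -8.67 percentage points for Tap1 (exact permutation p = 1.0) and by -7.35 for H2-D1 (exact permutation p = 0.667), with 2 libraries per sort.

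The comparison of the sorts asked whether cells traced from involucrin expression differ in class I expression from non-traced cells. None of the 4 members tested was called by edgeR, DESeq2 or limma-voom, and none had an unadjusted p under 0.05, against 302 of all 3070 genes (9.84%). edgeR called 38 of the 3070 genes, or 1.24%. The 4 class II members had too few UMIs to enter the test. The fitted log2 differences of the class I members were all below 0. B2m differed by -0.23 (95% interval -0.73 to 0.27, adjusted p = 0.914 by edgeR), and H2-K1 by -0.37 (-0.90 to 0.16, adjusted p = 0.749). The estimate for H2-D1 was -0.39 (-1.09 to 0.30, adjusted p = 0.846), and that for Tap1 was -0.71 (-1.64 to 0.22, adjusted p = 0.693). Leaving out Tom+ set 1 moved the B2m difference to 0.05, leaving out Tom+ set 2 moved that of H2-D1 to 0.02, and leaving out Tom- set 1 moved that of Tap1 to -0.23 and that of H2-K1 to -0.24. In data simulated for this comparison, with changes placed in genes drawn from all tested genes, 79.3% of 4-fold but 4.92% of 2-fold changes were recovered. Most tested genes have fewer UMIs than B2m or H2-K1, so these shares do not give the resolution for the members. The intervals of B2m and H2-K1 do not reach a 2-fold difference, and those of H2-D1 and Tap1 do. Smaller differences were not resolved for any of them.

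The sorts also differ in their content of Krt10-expressing cells. Krt10 is the keratin of the first layers above the basal layer, and the paper reports that its expression begins in basal cells. The limit used here restates the study's log-normalized Krt10 cut-off as UMIs. A cell was called Krt10-positive at 6 or more Krt10 UMIs of 2000, which gave 25 of 35 and 37 of 58 cells in the Tom+ libraries and 3 of 20 and 3 of 48 in the Tom- libraries. Among Krt10-negative cells, B2m was 38.6 UMIs per 10000 in Tom+ set 1, 45.7 in Tom+ set 2, 40.0 in Tom- set 1 and 41.7 in Tom- set 2. The sorts overlapped, and the fitted log2 difference was 0.00 (95% interval -0.44 to 0.43, edgeR adjusted p = 0.995). For H2-K1, the levels were 15.3 and 12.7 in Tom+ against 16.7 and 12.9 in Tom-, with a fitted difference of -0.13 (-0.66 to 0.41, adjusted p = 0.994). H2-D1 gave -0.04 (-0.79 to 0.70, adjusted p = 0.994), H2-L gave -0.56 (-1.14 to 0.03, adjusted p = 0.853), and their sum gave -0.37 (-0.88 to 0.14, adjusted p = 0.981). None of the 3 members tested was called by edgeR, DESeq2 or limma-voom or had an unadjusted p under 0.05, against 72 of all 1318 genes (5.46%), and the comparison called 4 genes, or 0.303%.

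**Figure D3:**
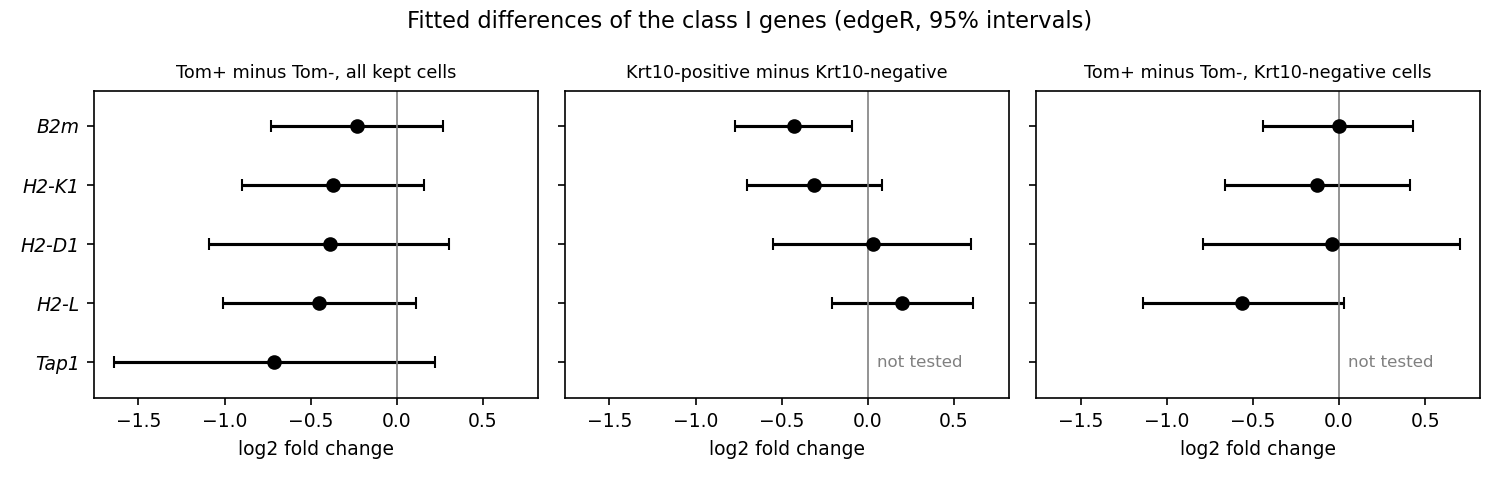
Fitted log2 fold changes (horizontal axes) of the class I members and H2-L (vertical axis) in the comparison of the sorts, of the Krt10 classes, and of the sorts among Krt10-negative cells. Points are edgeR estimates and bars their 95% intervals, unadjusted for the number of genes. The B2m interval of the Krt10 comparison, -0.77 to -0.09, lies below 0.

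Comparing the Krt10 classes within each library asked whether class I expression differs between sorted basal cells with high and low Krt10. B2m was lower in Krt10-positive than in Krt10-negative cells of all 4 libraries. It was 24.2 against 38.6 UMIs per 10000 in Tom+ set 1, 38.4 against 45.7 in Tom+ set 2, 35.1 against 40.0 in Tom- set 1 and 30.5 against 41.7 in Tom- set 2. The exact 95% Poisson intervals of the classes lay apart in Tom+ set 1, at 21.3 to 27.4 and 33.4 to 44.3, and narrowly apart in Tom+ set 2, at 35.8 to 41.2 and 41.5 to 50.2, and overlapped in both Tom- libraries. The fitted log2 difference of -0.43 (95% interval -0.77 to -0.09, SE 0.16) did not pass adjustment over all genes (edgeR adjusted p = 0.145). Over the other processing settings tried it stayed between -0.64 and -0.21, and no adjusted p fell below 0.0601. Both Tom- libraries contribute only 3 Krt10-positive cells, and the 2 Tom+ libraries alone gave -0.47 (adjusted p = 0.238).

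H2-K1 was lower in Krt10-positive cells in 3 of 4 libraries. Its levels in Krt10-positive against Krt10-negative cells were 11.3 against 15.3 UMIs per 10000 in Tom+ set 1, 9.64 against 12.7 in Tom+ set 2, 17.2 against 16.7 in Tom- set 1 and 10.9 against 12.9 in Tom- set 2. The fitted difference was -0.31 (-0.70 to 0.08, edgeR adjusted p = 0.464). H2-D1 was lower in Krt10-positive cells of the Tom+ libraries, at 6.20 against 7.83 and 3.10 against 4.38, and higher in those of the Tom- libraries, at 11.3 against 7.41 and 8.60 against 4.72. Its pooled difference was 0.03 (-0.55 to 0.60, adjusted p = 0.977), and with H2-L added it was 0.14 (-0.22 to 0.50, adjusted p = 0.749). Tap1 had too few UMIs to be tested between the classes.

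**Figure D4:**
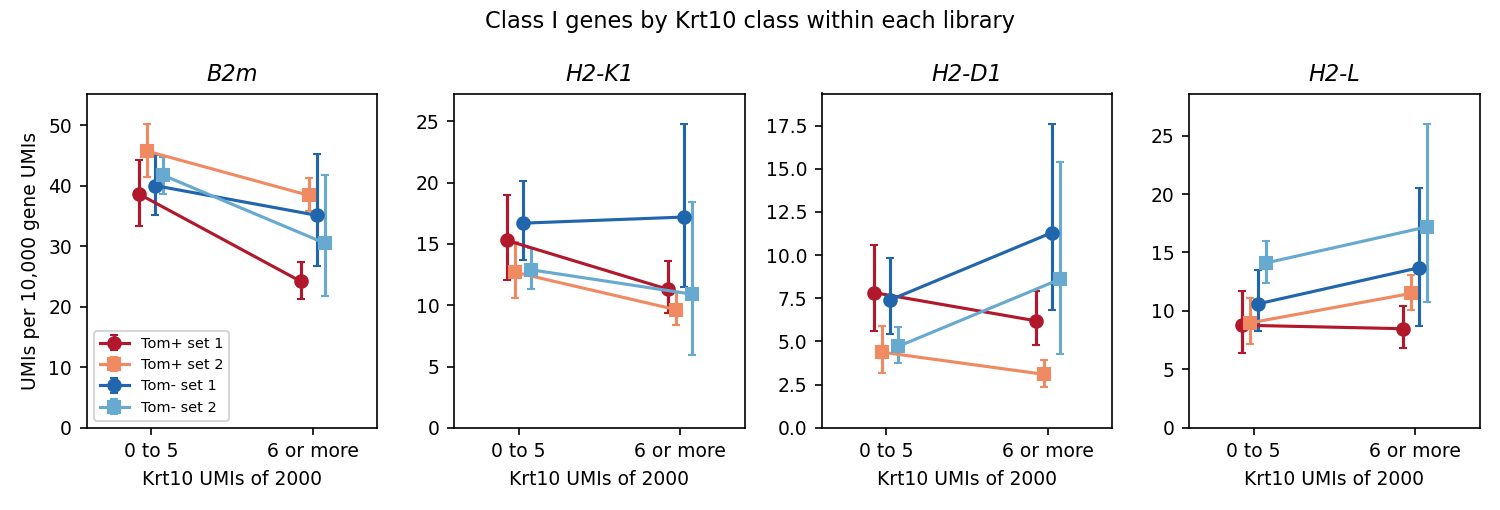
UMIs per 10,000 gene UMIs (vertical axes) in cells with 0 to 5 and with 6 or more Krt10 UMIs of 2000 (horizontal axes), joined within each library, with exact 95% Poisson intervals. All 4 B2m lines fall, from 38.6 to 24.2 in Tom+ set 1, and the H2-D1 lines fall in the Tom+ and rise in the Tom- libraries.

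None of the 3 members tested passed in the Krt10 comparison with edgeR, DESeq2 or limma-voom, and 1 of them, B2m, had an unadjusted p under 0.05, as did 215 of all 1206 genes (17.8%). edgeR called 81 of the 1206 genes, or 6.72%. The Krt10 contrast of B2m did not differ detectably between the sorts (difference 0.05, 95% interval -0.63 to 0.74, edgeR adjusted p = 0.988). When the Krt10-negative cells were split further, the order differed between libraries. In Tom- set 2, B2m was 40.9 UMIs per 10000 in 37 cells with no Krt10 UMI and 43.7 in 8 cells with 1 to 5, and in Tom+ set 2 it was 44.9 in 2 such cells and 45.8 in 19. In Tom- set 1 the values were 41.6 in 9 cells and 38.0 in 8, and in Tom+ set 1 they were 39.9 in 8 cells and 35.2 in 2. Marker lists pooled over the libraries differed between the classes too. In Krt10-positive against Krt10-negative cells, T cell markers stood at 2.21 against 1.07 UMIs per 10000. Langerhans markers stood at 0.552 against 0.104, and keratinocyte markers, Krt10 among them, at 350 against 422. The immune values rest on few wells, as a T cell marker was found in 12 wells and a Langerhans marker in 7. Well A09 of Tom+ set 2, which was Krt10-positive, held 38 UMIs of these 2 lists. The part of the marker lists in the B2m result was not tested. Without the wells that held 3 or more markers of another cell type, the B2m difference was -0.35 (adjusted p = 0.266).

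The remaining class I heavy chains were scarce beside H2-K1, H2-L and H2-D1. Of 18 listed genes, 15 had a UMI and 7 could be compared between the sorts, with the H2-D1 and H2-L rows counted apart. None was called, and 1 of 7 was fitted above 0, with a median log2 difference of -0.45 beside -0.01 over all genes tested. The H2-L row, which may count H2-D1 transcripts, was the most abundant after H2-K1. Its difference was -0.45 (SE 0.27, edgeR adjusted p = 0.651), which was -0.14 without Tom- set 2 and -0.25 without Tom+ set 1. For peptide supply and loading, all 14 listed genes had a UMI, 12 were compared and none was called. Their median was -0.44, with 2 of 12 fitted above 0. The most abundant were Calr, a chaperone of heavy chain folding, with 291 UMIs and a difference of -0.32 (SE 0.34, adjusted p = 0.914), and Pdia3, its thiol oxidoreductase partner, with 278 UMIs and -0.46 (SE 0.33, adjusted p = 0.769), or -0.18 without either Tom+ set 2 or Tom- set 1. In the Krt10 comparison, none of the 4 heavy chains and none of the 6 loading genes tested was called, and among Krt10-negative cells none of 5 and none of 6.

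Interferons are the main known inducers of both classes, and 24 of 28 listed genes of interferon signalling and response had a UMI. Isg15, Ifit1, Ifit3 and Gbp3 stood at 0 UMIs in all kept cells. Of 6 genes compared between the sorts, 1 was called and 3 were fitted above 0, with a median of -0.27. Over all 3070 genes tested, 1.24% were called and the median was -0.01. Ifitm3, which encodes an interferon-inducible membrane protein that blocks virus entry, was found at 5.09 and 8.22 UMIs per 10000 in the Tom+ libraries of set 1 and set 2 and at 17.4 and 13.3 in the Tom- libraries. It was lower in Tom+ (log2 fold change -1.20, SE 0.28, edgeR adjusted p = 0.0376), and the call was lost without Tom+ set 1 (-0.86, adjusted p = 0.884), without Tom- set 1 (-1.07, adjusted p = 0.0675) and in 3 other alternatives. Ifitm3 was also the gene called among the 3 tested between the Krt10 classes, where 6.72% of all 1206 genes were called. Its levels in Krt10-positive against Krt10-negative cells were 1.24 against 12.8 in Tom+ set 1, 5.49 against 14.2 in Tom+ set 2, 4.76 against 20.7 in Tom- set 1 and 0.782 against 14.3 in Tom- set 2 (log2 fold change -2.25, SE 0.32, adjusted p = 0.00022). The Krt10-positive values rest on 8 UMIs in 3 cells in Tom- set 1 and on 1 UMI in 3 cells in Tom- set 2. The Tom+ libraries alone gave -2.08 (edgeR adjusted p = 0.0291). The call between the Krt10 classes was lost when 1 Krt10 UMI was enough for the positive class (-0.96, adjusted p = 0.0757). Among Krt10-negative cells the sorts gave -0.39 (SE 0.26, adjusted p = 0.97). The most abundant genes of this list that were not called were Jak1, a receptor kinase (0.65, SE 0.35, adjusted p = 0.585 between the sorts), and Ifngr1, an interferon-γ receptor chain (0.09, SE 0.38, adjusted p = 0.988).

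The likeness of class I members from cell to cell was described by rank correlations. Over thinned cells within a library, the Spearman correlation of B2m with H2-K1 was 0.15, -0.06, 0.19 and 0.13 in Tom+ set 1, Tom+ set 2, Tom- set 1 and Tom- set 2, and that of H2-K1 with H2-D1 was 0.23, 0.25, -0.46 and 0.20. Among 1113 genes found in at least 20% of thinned cells, those most like B2m by the mean correlation of the 4 libraries were Ndufa1 (0.37), Ppia (0.35), Ifitm3 (0.33), Gapdh (0.33) and Timm13 (0.33), and H2-K1 ranked 273. Those most like H2-K1 were Dstn (0.30), Csrp1 (0.28), Itgb4 (0.28), Gnai1 (0.27) and Cbr2 (0.26), and B2m ranked 159. Psmb9, an immunoproteasome subunit, ranked 18 for H2-K1 (0.20) and 47 for B2m (0.24), and H2-L with B2m gave 0.19. The points are the 20 to 58 cells of one chip, which share a library and a fixed depth, and at a median of 2 to 3 thinned H2-K1 UMIs per cell such weak values are not read as a relation.

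Class II transcripts were found in few wells and mostly as single molecules. Of 161 kept cells, 15 held any UMI of Cd74 (chr18:60803848-60812652, plus strand), H2-Aa (chr17:34282744-34287823, minus strand), H2-Ab1 (chr17:34257689-34269419, plus strand) or H2-Eb1 (chr17:34305867-34316674, plus strand). These were 2 of 35 cells in Tom+ set 1 (5.71%, exact binomial 95% interval 0.70 to 19.2), 8 of 58 in Tom+ set 2 (13.8%, 6.15 to 25.4), 3 of 20 in Tom- set 1 (15%, 3.21 to 37.9) and 2 of 48 in Tom- set 2 (4.17%, 0.509 to 14.3). The sorts overlapped, and 9 of the 15 wells held a single class II UMI. Intervals cover counting error only. Cells were taken at full depth here. The median depth was 4047 gene UMIs in Tom+ set 1 and 4524 in Tom+ set 2. It was 3877 in Tom- set 1 and 3225 in Tom- set 2. The part of depth in these shares was not tested.

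Each class II gene was near the limit of detection in each library. Cd74 had 0, 6, 1 and 0 UMIs in Tom+ set 1, Tom+ set 2, Tom- set 1 and Tom- set 2, and H2-Aa had 7, 5, 3 and 0. H2-Ab1 had 0, 3, 1 and 1 UMIs, and H2-Eb1 had 0, 3, 3 and 1. A count of 0 allows a Cd74 UMI in up to 8.57% of cells in Tom+ set 1 and 6.25% in Tom- set 2 (3 counts of the cells; the exact binomial 95% limits are 10.0% and 7.4%), which limits detection at this depth and not the share of cells that express the gene. No cell type known to lack class II was sorted alongside as a background. Wells with fewer than 2000 gene UMIs, but at least 1, held a class II UMI in 4 of 54 cases, at a median of 147.5 gene UMIs against 3869 in the kept wells. Per 10000 gene UMIs, class II made up 1.33 in those wells and 0.466 in the kept wells. The first value rests on 4 UMIs, and the difference was not tested.

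At least 2 class II genes were found together in 3 wells. Well H11 of Tom+ set 2 had 5 UMIs of Cd74, 2 of H2-Aa and 1 each of H2-Ab1 and H2-Eb1, beside 141 UMIs of Krt14 and 80 of Krt5. Well F08 of Tom- set 1 had 1 UMI of Cd74, 2 of H2-Aa and 1 each of H2-Ab1 and H2-Eb1, beside 25 UMIs of Krt14 and 17 of Krt5. These 2 wells were the ones in which all 4 class II genes occurred together. Well F03 of Tom+ set 2 had 1 UMI each of Cd74 and H2-Eb1, beside 41 of Krt14 and 77 of Krt5. By their keratins, the 3 wells held basal keratinocyte RNA, and F03 with 39 Krt10 UMIs was Krt10-positive. F08 held 3 infundibulum markers, which places it among the infundibulum wells, F03 held 2 and H11 held 1. At least 1 such marker was found in 78.3% of kept wells. Well C09 of Tom+ set 1 had 5 UMIs of H2-Aa and no other class II gene.

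**Figure D5:**
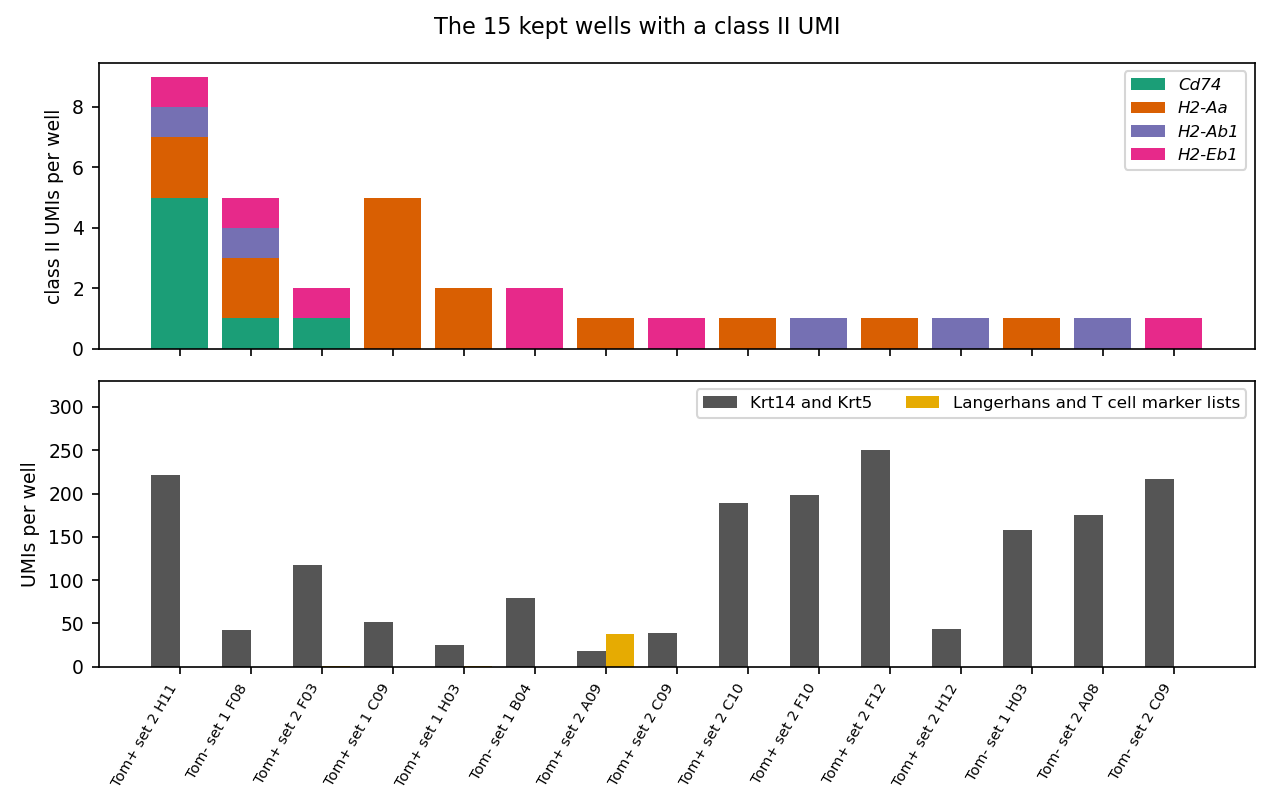
The 15 kept wells with a class II UMI (horizontal axis, named by library and well position), with class II UMIs stacked by gene (upper vertical axis) and the UMIs of Krt14 and Krt5 and of the Langerhans and T cell marker lists (lower vertical axis). H11 of Tom+ set 2 reaches 9 class II UMIs beside 221 keratin UMIs, and A09 of Tom+ set 2 has 38 UMIs of the immune lists.

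Markers of class II-bearing cells were checked in the same wells. No UMI of the 11 Langerhans markers was found in the 3 wells with at least 2 class II genes, and Cd207, which encodes langerin, was at 0 in all 15 wells with any class II UMI. The 15 wells together held 12 UMIs of the Langerhans list, in well A09 of Tom+ set 2, with 4 of the markers, and well H03 of Tom+ set 1, with 1. Over all kept cells, 5 of the 11 Langerhans markers stood at 0 (Tyrobp, Cd86, Csf1r, Mfge8 and Ctss), and the summed level ranged from 0.0636 to 0.589 UMIs per 10000 between libraries. Ciita, the master transactivator of class II genes, had 0 UMIs. Whether a second cell or free RNA shared these wells was not tested. Of the 13 listed genes of the class II pathway, 9 had a UMI, none could be tested, and the most abundant were Ifi30, a lysosomal thiol reductase, with 34 UMIs and H2-DMb1, a chain of the peptide editor, with 16 UMIs.

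The wells with T cell markers served as the nearest comparison to another cell type. Wells E03 and A09 of Tom+ set 2 and B03 of Tom- set 2 held 7, 8 and 8 T cell markers, beside 3, 4 and 1 of the Langerhans list, which includes genes such as Ptprc and Cd52 that T cells also express. B2m stood at 61.6, 24.2 and 33.0 UMIs per 10000 in these wells, and H2-K1 at 9.62, 6.38 and 0, so that B2m was present in each. A09 held 1 UMI of H2-Aa, and the other two had no class II UMI. E03 and A09 had 3 Krt14 UMIs each and B03 had 50, so keratinocyte RNA was in all 3 wells.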

How the data were processed

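Single cells were captured on C1 chips and their mRNA 5′ ends counted with molecular identifiers. The deposited tables hold raw UMI counts per gene and well, made by the authors on mm10/GRCm38 per the labels; the aligner's version and the treatment of reads shared by near-identical genes are not given in the sources used here. Spike-in and reporter rows (109 of 24487; 2.15% of UMIs in kept wells) were left out of library sizes and tests. Wells with at least 2000 gene UMIs were kept; no doublet caller was run. Counts were summed per library, or per library and Krt10 class, and tested with edgeR 4.0.16 (quasi-likelihood, TMM, filterByExpr, Benjamini-Hochberg threshold 0.05) in R 4.3.3, with library as a block between Krt10 classes. Cells were thinned to 2000 UMIs (seed 1) for shares and classes. DESeq2 1.42.0, limma-voom (limma 3.58.1) and other settings were alternatives. The code was tested on simulated counts. Intervals are exact binomial or Poisson at 95%, and a count of 0 was given the limit of 3 counts. Depth was 2024 to 11578 gene UMIs per kept well. The members and gene lists were chosen with earlier results of these data known. Named genes are the members, each listed pathway gene that passed a test with the 2 most abundant per list that did not, the 5 genes most like B2m and H2-K1, and the 10 genes with at least 10 UMIs most concentrated in the class II wells. Coordinates are from GENCODE M21 and RefSeq, both on GRCm38.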

Additional observations from a re-analysis of the deposited data

Results flagged for a closer look

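H2-D1 was drawn out because its Krt10 contrast ran one way in every Tom+ library and the other way in every Tom- library, with log2 ratios of Krt10-positive over Krt10-negative cells of -0.34 and -0.50 in Tom+ and 0.61 and 0.87 in Tom- (set 1 and set 2). The test of this difference did not pass (Tom+ minus Tom- -0.96, SE 0.48, edgeR adjusted p = 0.897), and it rests on 3 Krt10-positive cells in each Tom- library. Over all genes, 0 of 1206 passed that test by edgeR and 57 had an unadjusted p under 0.05. For H2-L the same difference was 0.05 (SE 0.39, adjusted p = 0.988). Its log2 ratios were -0.05 and 0.36 in Tom+ and 0.37 and 0.29 in Tom- (set 1 and set 2), so it did not have the H2-D1 pattern. The split of reads between the 2 rows is uncertain, and their sum was not compared in this way.

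Wells left out for low depth (54 wells above 0 but under 2000 gene UMIs) still held B2m, with 60 UMIs in 18 wells, or 20.0 UMIs per 10000 gene UMIs against 38.0 in kept wells. The same wells held 4 class II UMIs, or 1.33 per 10000 gene UMIs.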

How the results depend on the processing

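Of 156 fold changes of class I members recomputed under other settings, 0 passed the adjusted threshold and 26 changed sign, and the cause was not tested. The B2m difference between Krt10 classes and the H2-K1 and Tap1 differences between all sorted cells kept their direction. In the data simulated for the sorts, 2-fold changes in genes drawn from all tested genes were mostly not called. Class II counts were too low for a test.

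Called genes between the sorts numbered 38, and 8 with a minimum of 5000 UMIs, 24 with thinned sums, and 27 to 65 with 1 library left out (65 without Tom- set 1). The set number as a replicate block gave 116 called genes between the sorts and 0 among Krt10-negative cells, and called no member. The differences between set 1 and set 2 correlated at 0.15 over 3070 genes between the sorts, and the shared number is not known to pair the libraries. Between Krt10 classes, 81 were called, and 30 at 5000 UMIs, 45 with thinned sums, 14 with a class limit of 1 Krt10 UMI, 122 with thinning seed 2, 52 in the Tom+ libraries alone, and 54 to 92 with 1 library left out. Among Krt10-negative cells, 4 were called, 2 at a minimum of 1000 UMIs, with DESeq2 or without the filter, 0 at 5000 UMIs, without wells of other cell types, with thinned sums, with a class limit of 1 or with seed 2, and 1 to 3 with 1 library left out (1 without Tom+ set 2, 2 without Tom- set 2).

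The following changed sign. With 1 library left out, the sort differences ranged from -0.51 to 0.05 for B2m, -0.84 to 0.02 for H2-D1, -0.74 to 0.09 for Calr and -0.11 to 0.36 for Ifngr1. Jak1 was -0.07 at 5000 UMIs, and Ifngr1 was -0.02 without the deepest 5% of wells. The Krt10 difference of H2-D1 was -0.05 without the deepest wells, -0.02 with thinned sums, -0.15 with seed 2, -0.44 in the Tom+ libraries, -0.03 with limma-voom, -0.01 with DESeq2 size factors, -0.13 without the filter and -0.21 to 0.25 with 1 library left out. That of H2-L was -0.09 with seed 2 and -0.01 without the filter. Among Krt10-negative cells, B2m was 0.03 at 1000 UMIs, 0.01 without other cell types, 0.05 with seed 2 or without the filter and -0.16 to 0.16 with 1 library left out. H2-K1 was 0.09 with thinned sums. H2-D1 was 0.01 at 1000 UMIs, 0.09 at 5000 UMIs, 0.04 without the deepest wells, 0.05 without other cell types, 0.38 with a class limit of 1, 0.00 without the filter and -0.42 to 0.34 with 1 library left out. The share of cells with an H2-K1 UMI differed by 1.88 percentage points at full depth, 0.0197 without other cell types, and -7.32 to 2.27 with 1 library left out. For H2-D1 it was 8.85 at full depth and -15.2 to 0.506 with 1 library left out, and for Tap1 -21.4 to 4.04. Wells with class II transcripts numbered 3, and 15 when 1 gene sufficed.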

Other observations

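The hair follicle infundibulum borders the interfollicular epidermis, and 23 kept wells held at least 3 of its markers (10 of them in Tom+ set 2). In these wells, B2m stood at 41.6 UMIs per 10000 gene UMIs against 40.5 in the other wells of Tom+ set 2, 53.1 against 36.7 in Tom- set 1 (3 wells) and 43.6 against 40.2 in Tom- set 2 (9 wells). In Tom+ set 1, with 1 such well, it stood at 24 against 29.1. H2-K1 stood at 9.33 against 10.9 in Tom+ set 2 and at 12.1 against 13.0 in Tom- set 2, and at 18.9 against 16.5 in Tom- set 1 and 18.0 against 12.5 in Tom+ set 1, so neither gene had 1 order in all libraries.

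Among genes with at least 10 UMIs, those with the largest share of their UMIs in the 3 wells with at least 2 class II genes were Abtb1 and Rnf166 (30.0% each, on 3 UMIs), Agps, H2-Aa, Nrf1, Arhgef11, Eftud1, Ptpn12, Rcc1 and Vps33b (23.1% on 3 UMIs). The 3 wells held 1.65% of all gene UMIs. H2-Aa was used to choose these wells, and none of the other genes is on the Langerhans marker list.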
